A study of Drosophila melanogaster with 60 samples.

Results

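The 93 cytoplasmic ribosomal protein genes of Drosophila melanogaster were followed through the peak lists of a ChIP-seq study of the Hox protein Ubx, histone H3 acetylated or trimethylated at lysine 27, and the Polycomb-recruiting protein Pho. The rule took every Ensembl gene (genome dm6) that encodes a protein and whose symbol begins with RpL or RpS followed by a digit, or with RpLP followed by a digit, together with sta. They made up 93 of 13968 protein-coding genes on the main chromosome arms, 54 of them for the large and 39 for the small ribosomal subunit. They lay on chromosomes 3R (23), 2R (21), 2L (19), X (15), 3L (14) and 4 (1). The values that follow are shares of a window reaching 1 kb to either side of a gene's annotated transcription start site (TSS) that was covered by called peaks.

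Nuclei were taken from embryos with the INTACT method, in which a tagged nuclear envelope lets the nuclei of 1 tissue be pulled out. Early samples came from stages 10 to 13 and late samples from stages 14 to 17. Wild-type mesoderm (twi-INTACT, tag under the control of the mesodermal gene twist) gave 2 early and 2 late lists for each histone mark, 3 early and 2 late lists for Ubx, and neurons (elav>INTACT, tag driven in neurons) gave 2 early and 2 late Ubx lists. In a second late mesoderm series, the control embryos were twi-INTACT; UAS-Nslmb,GFP-Ubx and the degradation embryos twi-INTACT, Mef2>Nslmb,GFP-Ubx, with 3 lists per group for each of H3K27ac, H3K27me3 and Pho. Both groups carried GFP-tagged Ubx and the Nslmb transgene, which encodes a nanobody fusion that sends GFP-tagged proteins to the proteasome, and Nslmb had a driver (Mef2) in the degradation embryos only. Its expression therefore followed the Mef2 driver, whereas the nuclei were collected through twist, and the loss of Ubx could not be read from lists of other proteins. The labels do not say that replicates came from separate collections, so the spread between lists may be technical. The lists come from populations of nuclei, in which fewer marked nuclei and a weaker mark in each nucleus cannot be told apart.

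Cytoplasmic ribosomal proteins are the structural proteins of the ribosome that translates nuclear mRNAs. Their genes are transcribed strongly in nearly all growing cells, and in flies many are Minute loci, at which losing a single copy slows growth. Most fly ribosomal protein genes start transcription within a stretch of pyrimidines, the TCT initiator, in place of the common initiator element, and several proteins have a second gene copy used mainly in the germ line. H3K27ac marks active promoters and enhancers, H3K27me3 marks chromatin silenced by Polycomb complexes, and Pho is a DNA-binding protein that tethers those complexes.

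The start-site sequences of members with the highest and the lowest H3K27ac in the late control lists are shown because the pyrimidine stretch is the feature these promoters are known for. Each line runs 5′ to 3′ on the gene's own strand from 50 bases before the annotated start through the first 25 transcribed bases (RefSeq copy of genome Release 6, the same assembly as dm6), and capitals mark the longest run of C or T that touches the bases from 10 before the start to 21 into the transcript.
RpL13A, chr3R:5624424-5624498, plus strand: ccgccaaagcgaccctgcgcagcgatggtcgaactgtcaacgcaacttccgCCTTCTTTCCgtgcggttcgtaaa
RpL22, chrX:765106-765180, minus strand: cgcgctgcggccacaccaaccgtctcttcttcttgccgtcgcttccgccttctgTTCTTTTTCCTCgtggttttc
RpLP0, chr3L:22075817-22075891, plus strand: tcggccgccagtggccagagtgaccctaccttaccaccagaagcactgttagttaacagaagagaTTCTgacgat
RpS25, chr3R:11216263-11216337, minus strand: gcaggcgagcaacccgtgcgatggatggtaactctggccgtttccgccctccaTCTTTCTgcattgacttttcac
RpS10a, chr3R:27652710-27652784, plus strand: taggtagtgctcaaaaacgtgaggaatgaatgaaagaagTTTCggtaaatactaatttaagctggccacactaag
RpS5b, chr3R:14901539-14901613, minus strand: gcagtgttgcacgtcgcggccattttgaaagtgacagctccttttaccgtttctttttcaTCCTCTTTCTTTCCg
RpL10Aa, chr3R:15037316-15037390, plus strand: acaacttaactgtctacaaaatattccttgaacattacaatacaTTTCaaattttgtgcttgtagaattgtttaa
The first 4 genes are among the 5 that head the H3K27ac order and the last 3 stand at its foot. The run measured 10 bases in RpL13A, 12 in RpL22 and 7 in RpS25, but also 14 in the weakly acetylated RpS5b. RpLP0, which was strongly acetylated, had a longest run of 4 bases, which began at base 16 of the annotated transcript. The annotated start is the outermost start of any annotated transcript and need not be the one used.

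A pyrimidine run of at least 8 bases touching the stretch from 10 bases before the start to 21 into the transcript was counted. Such a run need not include the start itself, and in RpL13A it began at base 2. It was present in 54 of 93 members, or 58.1%, against 7.46% of all genes. It was present in 62% of the 79 members that are not second copies, in 5 of the 14 second copies and relatives, in 12% of the 75 mitochondrial ribosomal protein genes and in 27.5% of 51 translation factor genes. The string TCTTT, read on the gene's strand and beginning between 10 bases before and 11 bases into the transcript, occurred in 35 members (37.6%), in 13.7% of translation factor genes and in 2.85% of all genes. TCAGT, part of the common initiator, occurred at the same place in 1 member and in 13.1% of all genes. In the wider window from 250 bases before to 50 bases after the start, counted on both strands, TATCGATA (the element bound by DREF) occurred in 28 members (30.1%), in 27.5% of translation factor genes, in 21.3% of mitochondrial ribosomal protein genes and in 9.36% of all genes. TATAAA occurred in 48.4% of members and 45.8% of all genes, and GCCAT, the core of the Pho recognition sequence, in 41.9% and 41.2%. Matches of short strings describe the letters in these windows and are not evidence of binding.

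The 35 lists held from 936 to 85449 peaks, so levels are compared within a list or between lists cut to equal length. Peak names inside the list of early mesoderm Ubx replicate 2 carry the name of replicate S, and those inside control H3K27ac replicate 3 carry that of replicate 2. The contents of all these lists differ. The main values that rest on either list are also given without it, a choice made after seeing the data for the levels of H3K27ac. Late wild-type list 3 and control list 3 of H3K27ac stood apart, with the lowest all-gene cover (2.88% and 7.66%) and median peak widths of 168 and 155 bp. Degradation list 3 had peaks as narrow (153 bp), and the widest lists, early 1 and control 2, had 606 and 585 bp. The mean H3K27ac cover of 22 mesoderm and muscle markers lay above that of all genes in 8 of the 10 lists. That of 15 neuronal markers did so in 0 lists, and that of 17 markers of other tissues in 1 list. The median ratios to all genes were 1.35, 0.513 and 0.521. Mean H3K27me3 cover lay above that of all genes in 10 of 10 lists for each of these marker sets, with a median ratio of 3.91 for the mesoderm and muscle markers.

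H3K27ac covered the starts of ribosomal protein genes more than those of the average gene in every list. In early mesoderm the members' mean cover was 75.5% and 50.3% in lists 1 and 2, where all genes averaged 30.2% and 10.4%. In late wild-type mesoderm it was 72.3% and 19.7% in lists 2 and 3, against 35.8% and 2.88%. In the control lists it was 46.7%, 63.3% and 18.5%, against 20.2%, 40.2% and 7.66%, and in the degradation lists 50.7%, 54.5% and 31.4%, against 23.5%, 29.5% and 14.5%. Members were thus 1.58 to 6.86 times the all-gene mean (median 2.24), with the largest ratio in late list 3, which covers least. These means describe a list of genes, and no test was attached to them.

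**Figure D1:**
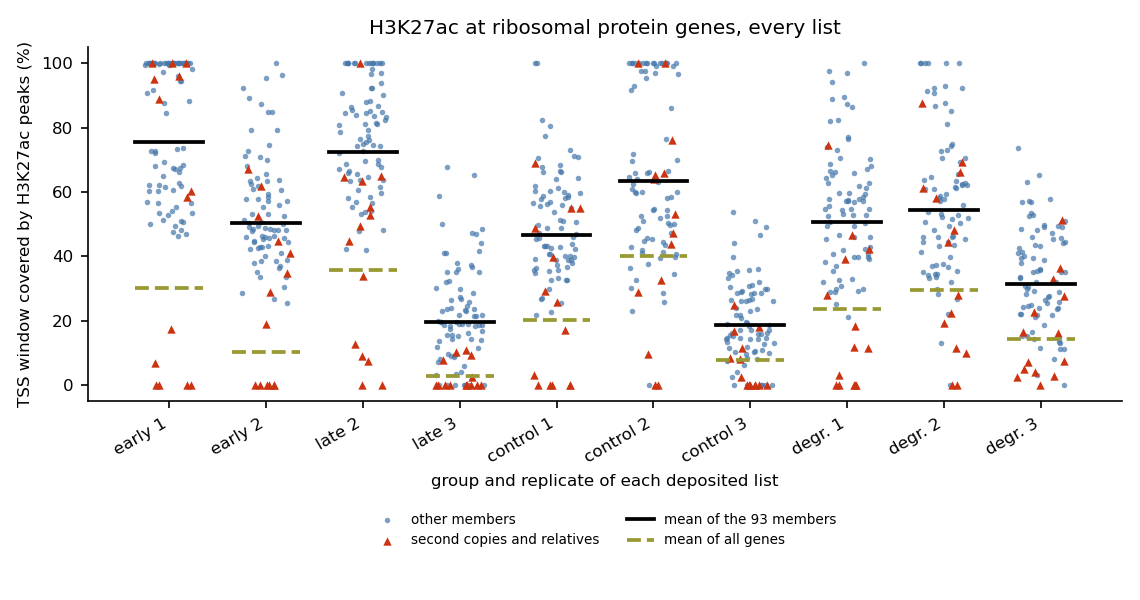
Share of the TSS window covered by H3K27ac peaks (percent, vertical axis) for each member in each of the 10 lists as deposited (horizontal axis: group and replicate). Circles are members, triangles are second copies and relatives, the solid bar is the mean of the 93 members and the dashed bar the mean of all genes. The solid bar lies above the dashed bar in all 10 lists, and the triangles fill the lower end of most columns.

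A peak of H3K27ac reached the TSS window of 72 of the 93 members in all 10 lists, against 14.9% of all genes. Without the 2 lists that stood apart, a choice made after seeing the data, it did so for 86 members, against 33.9% of all genes. Over all 10 lists the count was 21 of 75 mitochondrial ribosomal protein genes (28%), 21 of 51 translation factors (41.2%) and 11 of 48 proteasome subunits (22.9%). Without those 2 lists the contrast was smaller, with 92.5% of members against 82.7% of mitochondrial ribosomal protein genes, 70.6% of translation factors and 60.4% of proteasome subunits. When the peaks of a list were ranked by q value, the best peak at a member had a median rank within the top 0.392% to 15.4% of the list, with a median over lists of 1.47%. For all genes with a peak the median over lists was 18.2%, and for mitochondrial ribosomal protein genes 11.5%.

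The order of members within the control group was led by RpL13A, a large-subunit protein, whose window was covered by 100%, 100% and 19.4% in lists 1 to 3. RpL22 followed with 71.3%, 100% and 46.7%. RpLP0, the base of the ribosomal stalk that recruits translation factors, had 100%, 86.1% and 26.5%, and RpS25 had 64.3%, 91.6% and 50.9%. The means of these 4 genes lay between 68.9% ± 20.7 for RpS25 and 73.2% ± 46.5 for RpL13A (SD, n = 3), so that their order is not resolved beyond the spread between lists. Without control list 3, RpL13A (100%) and RpLP0 (93%) led, followed by RpS16 (88.7%) and RpL32 (86.8%), with RpL22 in place 6 and RpS25 in place 17; RpS16 and RpL32 are named from these values. At the other end stood 5 second copies. RpL10Aa had no H3K27ac in any control list, RpS5b averaged 1.10% ± 1.90, RpL37-2 7.08% ± 6.23, RpL22-like 10.9% ± 18.9 and RpS10a 14.7% ± 25.4. The same 5 genes were the lowest without control list 3. The windows of RpL13A, RpLP0 and RpS25 also held the start of another protein-coding gene, whereas those of RpL22 and of the 5 lowest genes did not. Cover of a member and of its neighbour cannot be told apart in such windows, and this was not tested.

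Members with special roles lay on both sides of the members' typical level, the median of the 10 list means being 50.5%. Over the 10 lists, the median cover was 50.2% for RpLP2 and 60.6% for RpLP1, which form the flexible stalk on RpLP0. It was 50.5% for RpL40 and 35.5% for RpS27A, the precursors in which a ribosomal protein is fused to ubiquitin. RpL3, which lines the peptidyl transferase centre, had a median of 75.5%, sta (the fly RpSA) 44.95% and RpS6, the substrate of S6 kinase, 53.2%. RpS6 was at 0 in control list 3, whereas the other 6 genes of this set had a peak in all 10 lists.

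Acetylation at these genes lay downstream of the start. Over the stretch from 250 to 500 bp into the gene, the members' cover ranged from 44.1% to 94% across the 10 lists (median 87.4%), and over the 250 bp before the start from 3.85% to 72.8% (median 37.1%). The downstream stretch exceeded the upstream one in 10 of 10 lists, for members as for all genes, whose medians were 34.6% and 15.3%. Between 500 and 1000 bp into the gene, the members' median was 51.5%, against 15.5% for mitochondrial ribosomal protein genes and 17.6% for all genes. At 0 to 250 bp members and mitochondrial ribosomal protein genes were close, with medians of 78.1% and 80.4%. Without control list 3 the members' medians were 39% before the start, 88.8% at 250 to 500 bp and 57.2% at 500 to 1000 bp. Ribosomal protein genes are short, with a median length of 1318 bp.

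**Figure D2:**
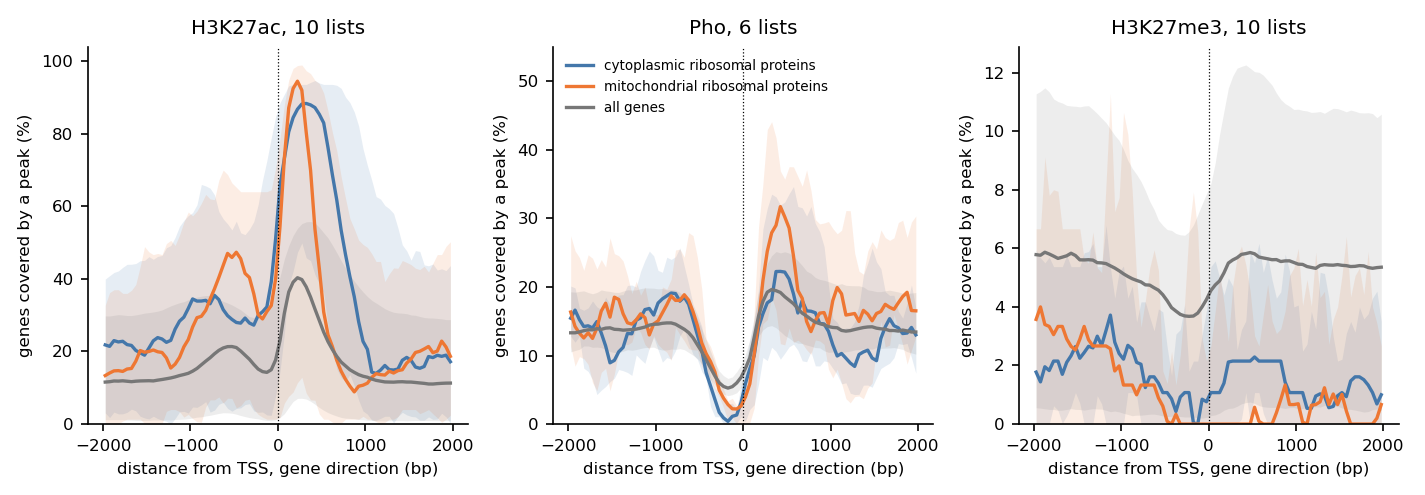
Share of genes covered by a peak (percent, vertical axis) in 50 bp steps from 2 kb upstream to 2 kb downstream of the TSS in the direction of the gene, for H3K27ac, Pho and H3K27me3. Lines are medians over the deposited lists and shading runs from the lowest to the highest list, for cytoplasmic ribosomal protein genes, mitochondrial ribosomal protein genes and all genes. H3K27ac of the members peaks downstream of the start and extends farther than that of the mitochondrial set, and Pho dips just upstream of the start.

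Upstream acetylation was higher where a neighbour started close by. A protein-coding gene on the other strand started within 1 kb upstream of 55 members, and for these the upstream kilobase was covered by 8.63% to 77.9% across lists (median 46.4%). For the 38 members without such a neighbour it was 0.784% to 37.7% (median 13.8%). Over the downstream kilobase the medians of these sets were 69% and 67%. Without control list 3 the upstream medians were 49.6% and 15.5%. The pairs include RpL13 with Dref, which encodes the protein that binds the TATCGATA element, RpL14 with Nelf-E and RpL28 with eIF1.

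Several second copies and relatives carried little H3K27ac. RpL10Aa, RpL22-like, RpL37-2 and RpS5b were below their partners in 10 of 10 lists, RpS10a in 9 and RpS28-like in 8. Without control list 3 the first 4 and RpS10a were lower in 9 of 9 lists and RpS28-like in 7. RpL10Aa had H3K27ac in 2 of 10 lists, with a highest value of 12.8%, where RpL10Ab ranged from 16.2% to 81.3%. RpL22-like, known from the testis, had a peak in 3 lists and at most 32.7%, where RpL22 ranged from 41.1% to 100%. RpS5b, known from the ovarian germ line, had a median of 1.65% against 38.5% for RpS5a, and RpL37-2 had 1.55% against 38.4% for RpL37-1. RpS10a had a median of 0 against 45.9% for RpS10b, and RpS28-like 2.55% against 34.1% for RpS28b. Without control list 3 the medians of RpL37-2 and RpS28-like were 0 and that of RpS5b was 3.298%.

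The remaining copies carried more of the mark. The TSS window of each of them also held the start of another protein-coding gene, such as Axn and Mgat2 for RpS28a and Lsm10 for RpS15Ab. Among the copies with little H3K27ac, only RpS28-like had such a neighbour (numb). Cover of the copy and of its neighbour cannot be told apart in these windows, and this was not tested. RpS14a and RpS14b, which lie in tandem so that their windows overlap, had medians of 66.2% and 52%. RpS28a was higher than RpS28b in 9 of 10 lists (58.4% against 34.1%), and RpS15Ab and RpS15Aa had 40.4% and 37.1%. RpL24-like, whose yeast relative acts in assembly of the large subunit, had 53.8% against 39.1% for RpL24, the lower of the pair in 5 lists and the higher in 5. RpLP0-like, likewise related to a yeast assembly factor, had 47.8% against 85.6% for RpLP0, and RpL34a, RpL7-like and RpS19b had 28.8%, 17.9% and 28.8% against 72.7%, 47.2% and 59% for their partners. RpL34a and RpL7-like were lower than their partners in 10 of 10 lists and RpS19b in 8.

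**Figure D3:**
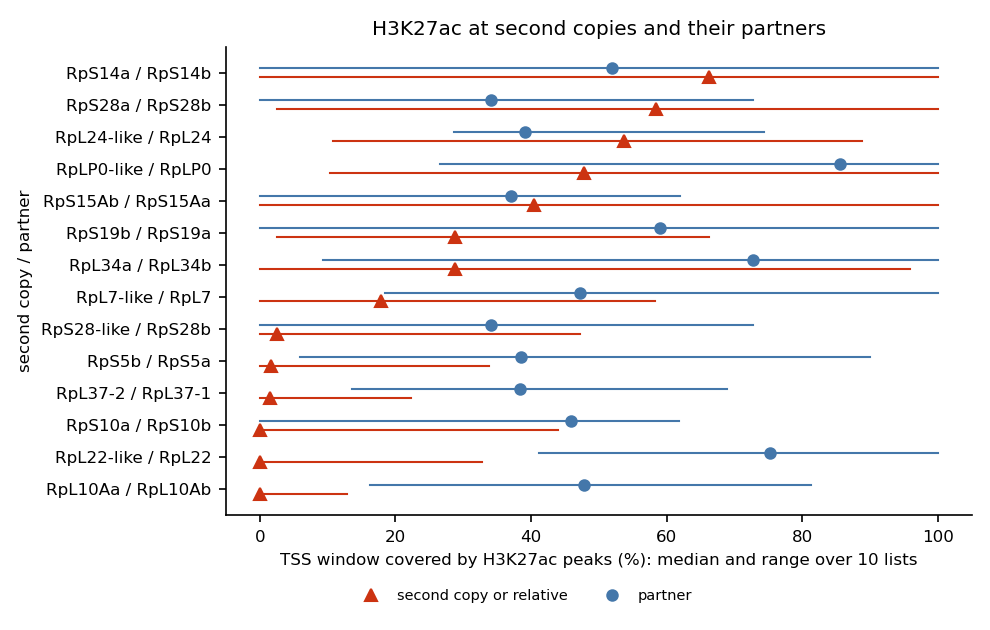
Share of the TSS window covered by H3K27ac peaks (percent, horizontal axis) for each second copy or relative and its partner. Symbols are medians and lines run from the lowest to the highest of the 10 lists. The second copies at the bottom stand close to 0 while their partners' medians lie between 34.1% and 75.3%.

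Some members near centromeres are given list by list, and they were chosen after their values were seen. RpL38 (2R, 4515388 to 4516458, minus strand) lies near the centromere. Its window was covered by 100% and 84.8% in early mesoderm, 100% and 13.9% in late wild-type mesoderm, 59.8%, 0 and 0 in the control lists and 100%, 0 and 0 in the degradation lists. The covered and empty lists of control and degradation thus bore the same replicate numbers. RpL5 (2L, 22532279 to 22536884, minus strand), also near a centromere, had 68.2%, 22.9% and 16% in control lists 1 to 3 and 57.6%, 22.1% and 8.05% in degradation lists 1 to 3. RpL15 on 3L, likewise near a centromere, had 56.5%, 41.1% and 26.2% and then 59.3%, 35.5% and 11.5%. In RpL38, RpL5 and RpL15, list 1 was the highest of both the control and the degradation lists, while for the average member list 2 was. In early mesoderm list 1 was the highest for the average member too. The order of the control and degradation lists was not particular to these genes. RpL10Ab had it as well, with 58.8%, 43% and 17.1% in control and 52.5%, 43.2% and 24.4% in degradation lists, as did RpL12, RpLP0 and RpS13.

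The first comparison set early against late wild-type mesoderm for H3K27ac, after each list had been cut by q value to the 1.01 Mb covered by the shortest list. The members' mean cover was 60% and 44.85% in the early lists and 53.5% and 19.7% in the late lists. Late list 2 lay between the early lists and late list 3 below both, so the groups overlapped. The difference was -15.8 percentage points against SDs of 10.7 and 23.9 (n = 2 each), and all genes went from 4.797% to 2.87%. Of 86 members with any cover, 0 passed an adjusted p of 0.05 in limma, as did 0% of the 4149 genes tested in either direction. At an unadjusted p of 0.05, 0 members were higher and 1 was lower in late lists, against 13 higher and 176 lower of the 4149 genes.

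Both late lists were below both early lists in 12 of the 86 tested members (14%), against 11% of tested genes, and above them in 0 members, against 2.92%. RpS19a had 91.6% and 44.1% in early lists and 0 in both late lists (adjusted p = 0.643, limma). RpL40 had 57.8% and 45.3% early and 0 and 3.05% late, and RpS6 had 45.2% and 49.1% early and 0 and 3.95% late. RpS15Aa went from 46.8% and 29.2% to 0 in both late lists, and RpS2 from 49.3% and 42.3% to 0 and 17.6%. In the lists as deposited late list 2 covered 100%, 63.7%, 64.6%, 57% and 63.6% of these same windows, and it was at 0 in all 5 after it had been cut from 25.3 Mb to 1.01 Mb. Calls depended on single lists, and with 1 list left in a group the test assumes that it varies like the other group. Without early list 1, 7 of 86 members were called lower in late mesoderm, RpS19a, RpS15Aa, RpS14a and RpS14b among them, with 688 of 4047 genes, a larger share. Without late list 2, 3 members (RpL24-like, RpL7-like and RpS19b) were called higher and 2 (RpL5 and RpS16) lower, of 86 tested, with 1511 of 4067 genes higher and 8 lower.

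The comparison of control with degradation embryos asks whether degrading Ubx under the muscle driver Mef2 alters the marks. For H3K27ac, in lists cut to 7.71 Mb, the members' mean cover was 46.2%, 59.1% and 18.5% in control and 49.3%, 53.3% and 29.6% in degradation lists. The groups overlapped, with means of 41.3% ± 20.7 and 44% ± 12.7 (SD, n = 3 each), and the difference of the means was 2.75 percentage points. It turned to -8.97 without control list 3 and to -1.87 without degradation list 2, and it was 11.7 without control list 2 and 9.99 without degradation list 3, so its direction rests on single lists. It was 5.23 without control list 1 and 0.136 without degradation list 1. Each of these values leaves out 1 list of a same-numbered pair and keeps the other, and same-numbered lists resembled each other. Within the pairs, the degradation list was above the control list for lists 1 and 3 and below it for list 2. Of 91 members tested, 0 were called by limma, as were 0% of 12211 genes. At an unadjusted p of 0.05, 0 members passed in either direction, against 43 higher and 14 lower of the 12211 genes. No member had all its degradation lists above or all below its control lists, against 0.753% and 0.221% of tested genes. Fitting the replicate number as a block, and leaving out control list 3 with its differing peak names, also left 0 members called.

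**Figure D4:**
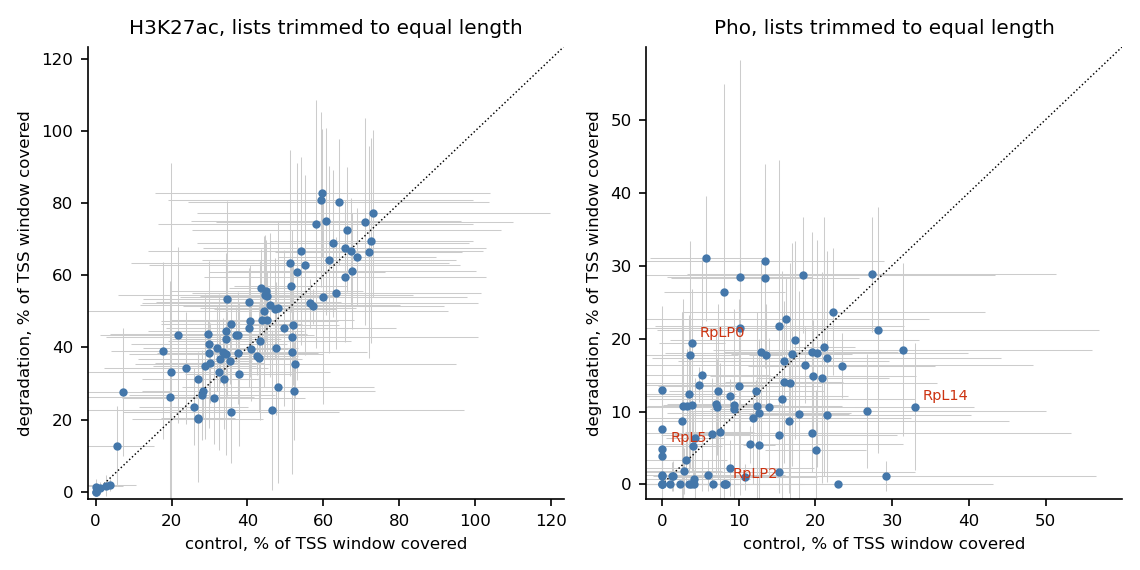
Mean share of the TSS window covered in 3 control lists (horizontal axis, percent) and 3 degradation lists (vertical axis, percent) for each member, for H3K27ac and Pho in lists cut to equal covered length. Points are means, grey bars are SDs over the 3 lists, the dotted line marks equal values, and the 4 named genes are among those whose control and degradation lists do not overlap. H3K27ac points follow the line with wide bars, and Pho points scatter around it.

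H3K27me3 was sparse at ribosomal protein genes. In the lists as deposited, the members' mean cover ranged from 0.339% to 3.08% and lay below that of all genes, 0.420% to 9.33%, in 10 of 10 lists. No H3K27me3 peak touched the window of 24 members in any list. A further 36 members had a peak in 1 list and 25 in 2 lists. Of all genes, 18.9% had none, 29.15% had a peak in 1 list and 21% in 2 lists. Among the few with the mark, RpL37-2 had it in 9 lists, covering 16.6%, 100% and 16.6% of its window in control lists and 66.8%, 70.4% and 100% in degradation lists. RpL22-like had 6.497%, 42.2% and 9.30% in control lists and 59.9%, 51.9% and 48.9% in degradation lists, and 0 in all 4 wild-type lists. RpS30, with H3K27ac in every list, carried a small H3K27me3 share of 4.90% to 22.2% in 9 of 10 lists.

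At RpL22-like the degradation values lay above all control values in the lists as deposited, but the difference did not pass (adjusted p = 0.629, limma). For RpL37-2 the groups overlapped (adjusted p = 0.629). After all lists had been cut to 8.58 Mb, RpL22-like was at 6.497%, 0 and 2.80% in control and at 0 in all degradation lists, so that the direction turned with the trimming. In the trimmed comparison 20 members had any cover, and 0 were called, against 0% of 4502 genes. At an unadjusted p of 0.05, 0 members passed, against 45 higher and 6 lower of the 4502 genes. The mean over all 93 members was 0.935% ± 0.421 in control and 0.441% ± 0.478 in degradation lists (SD, n = 3 each). It was lower in the degradation list of each same-numbered pair, with 0.482% and 0.143% in lists 1, 1.31% and 0.993% in lists 2 and 1.01% and 0.188% in lists 3. The fall in the trimmed lists was not particular to the members. Degradation means were lower for 19 of the 20 members, 20 of 21 mitochondrial ribosomal protein genes and 3728 of all 4502 genes with any cover. The cut kept 12974, 2212 and 28924 peaks in control lists 1 to 3, and 648, 3057 and 3286 in degradation lists 1 to 3. A gene covered in control lists alone counts as lower by design, so these counts are not a test of a fall. All genes averaged 3.25% in control and 3.06% in degradation lists. In the lists as deposited the members averaged 1.78% ± 1.2 in control and 1.77% ± 0.41 in degradation lists. All genes then averaged 6.11% ± 3.1 and 6.58% ± 0.94.

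Between early and late wild-type mesoderm, 7 members had any H3K27me3 in lists cut to 1 Mb, and the members' mean was 0 in both early lists and 0.182% and 0.339% in the late lists. No member was called by limma, against 0% of the 934 tested genes called higher and 1.93% called lower in late mesoderm. At an unadjusted p of 0.05, 0 members passed, against 7 higher and 59 lower of the 934 genes. Without late list 2, 4 of 4 tested members were called higher, together with 328 of 502 genes, and without late list 3, 19 of 37 members, together with 2727 of 6479 genes. With a single late list left, the test assumes that it varies like the early lists.

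Pho was present at ribosomal protein genes at the level of the average gene. The members' mean cover as deposited was 15.4%, 8.64% and 19.7% in control and 14.5%, 10.3% and 11.95% in degradation lists. All genes averaged 13.5%, 10.2% and 17.6% in control lists and 13.1%, 11.2% and 13.3% in degradation lists, so members were higher in 3 of 6 lists and lower in 3. A Pho peak reached the window in all 6 lists for 27 members, or 29%, against 27.7% of all genes. The highest control means were those of RpL14 (41.1% ± 3.84), RpL29 (34.5% ± 20.3), RpS28a (31.9% ± 10.9), RpL31 (31.4% ± 24.7) and RpL7 (31.3% ± 7.21), all SD with n = 3. RpL39 was at 0 in all 6 lists, and RpL7A, RpL15, RpL17 and RpL6 had control means of 0, 0.0167%, 1.27% and 2.60%.

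Pho peaks were sparse just before the start. Over the 250 bp before the start the members' cover was 0.826% to 3.12% across the 6 lists (median 1.24%), below the 4.54% to 7.37% of all genes. It was 11.1% to 20.4% between 1000 and 500 bp upstream and 11% to 32.5% between 250 and 500 bp downstream. The stretch just before the start was the lower one in 6 of 6 lists, for members, mitochondrial ribosomal protein genes and all genes alike. Mitochondrial ribosomal protein genes had a downstream median of 29.3%, against 20.2% for the members and 19.2% for all genes.

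Pho at ribosomal protein genes was compared between control and degradation lists cut to 11.9 Mb. The members' mean was 13.7%, 7.11% and 12.6% in control and 12.4%, 10.3% and 9.60% in degradation lists, or 11.1% ± 3.54 and 10.8% ± 1.47 (SD, n = 3 each). Limma called 0 of 90 tested members and 0% of 13108 genes in either direction. At an unadjusted p of 0.05, 1 member was higher and 2 were lower, against 266 higher and 154 lower of the 13108 genes. The libraries ran in sequencing lanes 5 and 6, as the labels give them. In lane 5 the members' means were 13.7% and 7.11% in control against 12.4% in degradation, and in lane 6 they were 12.6% in control against 10.3% and 9.60% in degradation. A fit with lane as a term called 0 members.

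Degradation lists lay above control lists without overlap in 3 of the 90 members (3.33%), against 4.97% of tested genes, and below them in 2 (2.22%), against 3.04%. RpLP0 had 3.15%, 8.50% and 0 in control and 21%, 11.3% and 25.9% in degradation lists (adjusted p = 0.963, limma), and RpL5 had 0 in each control list against 6%, 4.398% and 4.398%. RpL14 went the other way, with 28.5%, 41.9% and 28.4% against 20.7%, 6.30% and 5%, as did RpLP2, with 3.15%, 3.10% and 18.2% against 0 in each degradation list. In the lists as deposited the groups overlapped for these 4 genes: control list 3 then covered 40.4% of the RpLP0 window, control list 1 11.6% of RpL5, and degradation list 1 46.4% of RpL14 and 16% of RpLP2.

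Ubx peaks met ribosomal protein genes more often than other genes in some lists and less often in others. In early mesoderm 67 of the 93 members (72%) had a peak in list 2, 18 (19.4%) in list S and 2 (2.15%) in list R, where 56.2%, 16.3% and 4.01% of all genes did. In late mesoderm 13 (14%) and 16 members (17.2%) had one in lists R and S, against 13.9% and 19.9% of all genes. In early neurons 50 (53.8%) and 77 members (82.8%) had one in lists R and S, against 45.8% and 74.3%, and in late neurons 0 and 2 (2.15%), against 1.29% and 0.931%. For list R of late neurons, 0 of 93 members describes a list of 1336 peaks.

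**Figure D5:**
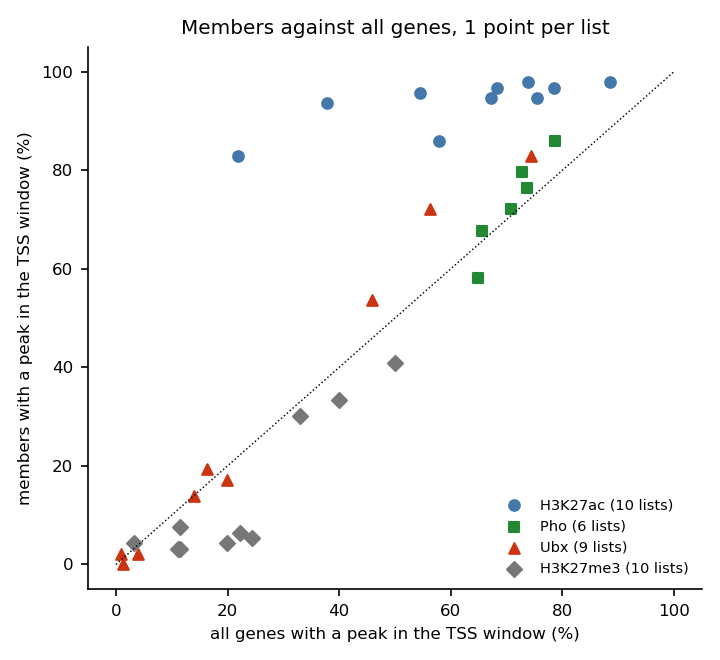
Share of members (vertical axis, percent) against share of all genes (horizontal axis, percent) with a peak in the TSS window, 1 point for each of the 35 deposited lists, with the dotted line at equal shares. H3K27ac points stand above the line, H3K27me3 points mostly below it, and Pho and most Ubx points nearer to it.

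A Ubx peak in every list of a group was found for 0 members in early mesoderm (0.623% of all genes), 1 in late mesoderm (3.39%), 40 in early neurons (37%) and 0 in late neurons (0.0501%). The late mesoderm gene was RpL13A, covered by 6.95% and 12.1% of its window in lists R and S. That window also holds the starts of Dph4 and Spec2. RpL13A also had Ubx in both early neuronal lists (10.2% and 10.4%) and in early mesoderm list R (15.6%), but not in early mesoderm lists 2 and S. RpL34a likewise had a peak in 5 of 9 lists, with 29.9% and 8.80% in early neurons. RpS29, named after its values were seen, also had 5, and no member had more. The other leading genes of early neurons had peaks in 4 lists: RpL30 (mean 28.5% over both early neuronal lists), RpS14b (18.2%), RpL7 (16.7%), RpL3 (16.6%), RpL23A (12.3%), RpS27 (9%), RpL19 (8.75%) and RpS14a (7.80%). Second copies and relatives accounted for 12 of the 40 early neuronal genes, 12 of 14 against 28 of the other 79 members. Their mean cover in early neurons was 9.27% ± 1.51, against 7.56% ± 5.11 for the other members and 7.88% ± 4.01 for all genes (SD, n = 2). The split of the counts rests on an overlap of at least 1 bp and was not tested.

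These counts moved with list length. With each list cut to its 936 best peaks, 0 members were bound in every list of any group. All-gene shares at this length were 0.0573% in early mesoderm, 0.959% in early neurons, 0.179% in late mesoderm and 0.0501% in late neurons. With shares this low, a count of 0 does not set the members apart from other genes. Without early mesoderm list R, the shortest there, 13 members shared a peak, with 10.8% of all genes, and without list S 1 did, with 2.47%. Without list 2, whose peak names carry another replicate's name, the count was again 0, with 0.859% of all genes. In late mesoderm the 2 single lists held 13 and 16 members, and in early neurons 50 and 77.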

How the data were processed

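Per the submitters' processing notes, FastQC, Bowtie and MACS2 were used with genome dm6; versions, settings and the use of the input libraries are not given in the sources used here. The authors deposited 1 peak list per library, with a score, a fold enrichment as a ratio, and −log10 of p and of q for each peak; no read counts are given, so depth is unknown. The 35 lists used here fall into 14 groups taken from the labels; 5 combined Ubx lists and the input libraries were not used.

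Genes and starts came from Ensembl release 115 (BDGP6.54); 13 of 1050860 peaks on the 7 main chromosomes ended just past a chromosome end of the Release 6 sequence. For each gene the covered share of the TSS window was computed (Python 3.11.15, pandas 2.3.3). For each comparison the lists were cut by −log10 q to the covered length of the shortest, and the share was arcsine square-root transformed and tested with limma 3.58.1 (R 4.3.3, mean-variance trend), with Benjamini-Hochberg adjustment over all genes covered in at least 1 list and a threshold of 0.05. The fit was also run on simulated shares with even normal noise, a large known shift and no zeros. The real lists hold many zeros and spread more, so that run does not show how well differences are found here. Ubx binding, at least 1 bp of overlap in every list, was counted without a test. Promoter strings were counted in the RefSeq Release 6 sequence.

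Control and degradation lists share replicate numbers. Over genes, deviations from the group means correlated between same-numbered lists at 0.438, 0.598 and 0.587 for H3K27ac and 0.319, 0.371 and 0.299 for H3K27me3, so the numbers were taken to pair these lists; the block changed no call. Named genes are, per comparison, members past the threshold or, failing that, the members with the largest differences among those whose lists do not overlap (up to 5 per direction), the 5 highest and 5 lowest in control H3K27ac and Pho, up to 10 Ubx-bound members per group, and a fixed set of stalk, ubiquitin-fusion and duplicated genes. Results for some members that the rule would name are not reported here. Members and lists were chosen with earlier results of these data known.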

Additional observations from a re-analysis of the deposited data

How the results depend on the processing

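Member calls stayed at 0 in the H3K27ac, H3K27me3 and Pho comparisons of control with degradation under every alternative that could be fitted, among them the replicate block (0 members called for each of the 3) and the lane term for Pho. For Pho the numbers did not pair the lists: same-numbered lists correlated at 0.00431, -0.0173 and -0.0159. The early and late wild-type lists share only 1 replicate number, so no paired analysis was possible there. Without the filter on covered genes, the trend could not be fitted for both stage comparisons and for H3K27me3 after degradation. For H3K27ac between stages, 1 member was called without the trend (with 3 genes higher and 121 lower of 4149), and 0 to 7 when single replicates were left out (up to 1511 genes higher and 688 lower). For H3K27me3 between stages, leaving out single replicates gave 0 to 19 calls (up to 2727 genes higher and 58 lower).

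The difference of the members' mean cover (percentage points) ranged, without single replicates, from -32.7 to 2.77 for H3K27ac between stages and from -8.97 to 11.7 for H3K27ac after degradation. For H3K27me3 between stages it was 0.00322 when lists were reduced to the top-scoring 50% of peaks, and 0.26 to 1.63 without single replicates. For H3K27me3 after degradation it was -0.0179 in the lists as deposited and -0.96 to -0.304 without single replicates. On the arcsine scale, leaving out single replicates moved RpS15Aa in H3K27ac between -0.753 and 0.0198 and RpS2 between -0.562 and 0.103, both turning upward without late replicate 3. It moved RpLP2 in Pho between -0.31 and 0.112, upward without degradation replicate 2.

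For Ubx, gene regions from 2 kb upstream to the gene's end gave 2 members in early mesoderm (8.2% of all genes), 61 in early neurons (70.9%) and 3 in late mesoderm (18.8%). In early neurons an overlap of 200 bp gave 6 (9.75%), the better-scored 50% of each list 8 (11.1%), lists of equal peak number 0 (0.959%) and the 500 bp window 12 (17%), and in late mesoderm each of these 4 gave 0 (0.179% to 1.22%). Leaving out single lists gave 0 to 13 in early mesoderm, 50 to 77 in early neurons, 13 to 16 in late mesoderm and 0 to 2 in late neurons. Lists hold peak calls and no depth, so a gene without a peak may lie below that list's detection.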
